A study of Oryctolagus cuniculus with 54 samples.

Results

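Rabbit lung transcript levels at 3 and 7 days after preterm delivery were compared with day-28 fetal, 1 h preterm and 4-day term levels. The 100 genes described here were those most clearly above all of these. They were chosen by their values: in the libraries of 1 sequencing run, the level of a gene in a group was the mean of log2(CPM + 1), where CPM is the count divided by the total of the library and multiplied by 1000000. Of 29587 genes in the table, 8540 reached at least 2.6 on this scale in both preterm groups of 3 and 7 days (P3 and P7). These were ordered by the lower of the P3 and P7 levels minus the highest level among preterm pups at 1 h (P0), fetuses of day 28 (F28) and term pups 4 days after birth (T35). The first 100 were taken, after leaving out the 2 genes with differences of 7.09 and 4.19. The P0, P3, F28 and T35 values and the P7 values of pups 3 and 4 in that run are therefore a description, and the calls of comparisons that include them, given last, are a description too.

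The series holds 54 libraries from 45 New Zealand White rabbits, made from homogenates of lung with a method that reads the 3′ end of polyadenylated RNA. Fetal lungs (F20, F23, F25, F27, F28 and F29, named by gestational day) were collected at C-section. Term pups were born naturally on day 31 (T31, taken at birth) and stayed with their mothers in room air until 4, 6 or 11 days after birth (T35, T37 and T42). Preterm pups were delivered by C-section on day 28, kept in incubators at 21% oxygen and fed milk replacer by orogastric tube until 1 h (P0), 3 days (P3) or 7 days (P7). No term group was delivered by C-section or hand-fed, so prematurity cannot be told apart from the delivery, feeding and rearing that went with it. In such whole-tissue RNA, more cells of a type and more RNA per cell cannot be told apart either.

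Late fetal lung is built of saccules whose walls later fold into alveoli. Birth at term falls on a lung that has prepared for air with surfactant and with clearance of its fluid, whereas preterm birth places an earlier lung in air. In preterm infants this interruption is linked to bronchopulmonary dysplasia, a chronic lung disease with fewer and larger alveoli. The files identify genes by Ensembl identifiers and do not pair them with names, so the genes are called by their rank in the ordering, and no known role can be given for any of them.

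The difference that ordered the genes was 2.78 for the first, ENSOCUG00000004625, and 2.23 for the second, ENSOCUG00000022646. It was 1.43 for the gene of rank 10, had a median of 0.777, and was at least 1 for 24 of the 100 genes. At the edge the last 3 genes had 0.538, 0.536 and 0.530, and the next 3, not taken, had 0.528, 0.528 and 0.524, so the end of the set is not a step in the data. The nearest of the comparison groups was T35 for 75 genes, P0 for 14 and F28 for 11. In 75 of the 100 genes all 5 preterm libraries of 3 and 7 days lay above all 7 libraries of P0, F28 and T35 in the run, and in the other 25 at least 1 library overlapped. Of the 8540 genes past the level of 2.6, 2.49% did so, and since the choice used these values nothing is read from the contrast. The lower of the P3 and P7 levels ranged from 2.62 to 9.46 with a median of 4.39, under 4 in 42 genes and at least 6 in 16. Most of the genes were thus low to moderate in level, and 4 abundant ones (ranks 2, 3, 6 and 71) made up 41.7% of the summed CPM of the 100 genes in pup P7_1.

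In the preterm pups the level was higher at the later age. The median over the 100 genes, on the log2(CPM + 1) scale, lay between 2.82 and 2.95 in the 3 P0 libraries, was 4.21, 4.28 and 4.42 in the P3 libraries, and was 4.85 and 5.05 in the P7 libraries of the run. Of the 100 genes 92 were higher at P7 than at P3, with a median difference of 0.64. All of these libraries helped to choose the genes, and no share over all genes was taken for the count of 92, so it is a description only.

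**Figure D1:**
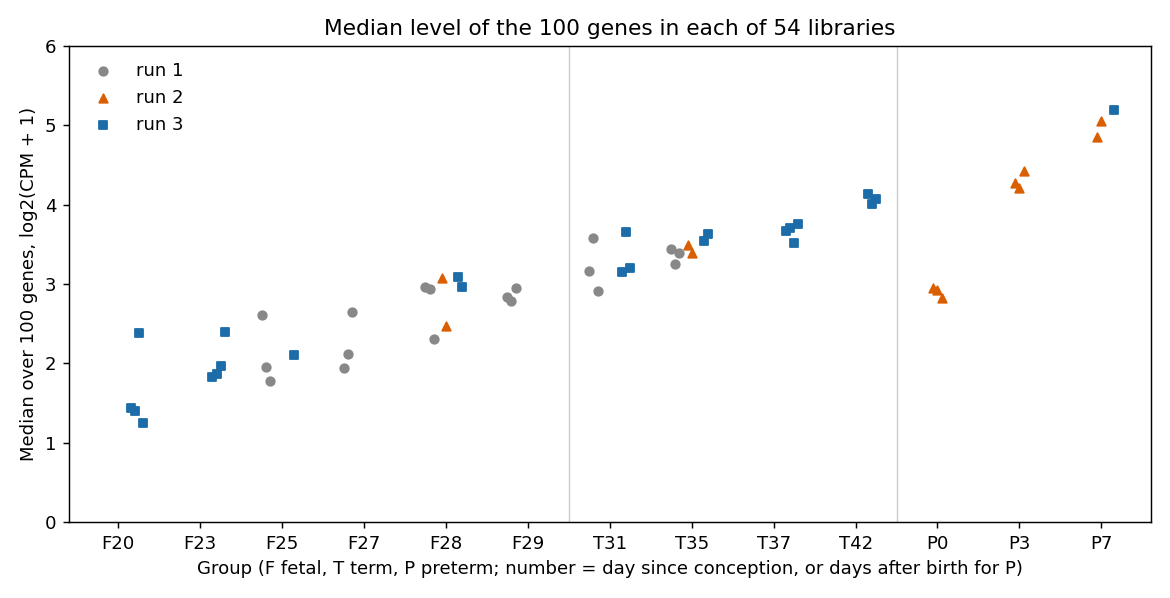
Each point is 1 library, and its height is the median of log2(CPM + 1) over the 100 genes; groups run along the horizontal axis, and colour and marker give the sequencing run. The 6 preterm libraries of 3 and 7 days lie between 4.21 and 5.19, above all other libraries, of which those of T42 come nearest, at 4.01 to 4.14.

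One more 7-day preterm pup, P7_1, was sequenced in another run, together with the T37 and T42 pups, and none of these libraries was used to choose the genes. Its median over the 100 genes was 5.19, against 3.52 to 3.76 in the 4 T37 libraries and 4.01 to 4.14 in the 3 T42 libraries. The median of all genes varied only between about 2.87 and 3.53 across libraries. The summed CPM of the 100 genes was 9833 in P7_1, 2502 to 3438 at T37 and 4486 to 5014 at T42, so the groups did not overlap. Without the 4 abundant genes it was 5734 in P7_1 and 2825 to 3024 at T42, and the gap remained. The 3 animals read in both runs (1 of F28 and 2 of T35) had a median gene higher by 0.179 in the run of P7_1, against -0.016 over all genes, but the choice took genes that were low in their earlier libraries, so this is no measure of a run effect. P7_1 lay above the mean of the other 2 P7 pups in 67 genes, with a median difference of 0.20, and no share over all genes was taken for this count.

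Gene by gene, P7_1 was above every T37 and T42 library for 80 of the 100 genes, within their range for 19 and below it for 1. Over all 13983 genes tested, 18.8% had P7_1 above every T37 and T42 library. With edgeR's quasi-likelihood test (called at more than 2-fold and a Benjamini-Hochberg adjusted p of at most 0.05 over all genes), 37 of the 100 genes were higher in P7_1 than in the mean of T37 and T42 and none was lower. Over all genes 0.837% were called higher and 0.215% lower. The median log2 fold change of the 100 genes was 1.35, against -0.02 over all genes, and 96 of them were above 0. Another 26 genes had a log2 fold change over 1 but an adjusted p over 0.05. No share over all genes was taken for the counts of 96 and 26, so they are a description only. P7_1 is a single animal, so its spread was taken to be that of the other groups, and the test says nothing of the spread among preterm pups.

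The genes called higher in P7_1 had folds from 2.23 to 40.2, with a median of 4.57. In successive blocks of 25 ranks, 16, 11, 9 and 1 were called, with median log2 fold changes of 2.50, 1.61, 1.13 and 0.91, so the genes of the last block, which only just entered the set, rarely passed. Against T37 alone 42 of the 100 genes were called higher (1.04% of all genes), with a median log2 fold change of 1.66. Against T42 alone 17 were called higher (0.322% of all genes), with a median of 0.99, and all 17 were also called against T37. The T42 count rested on every T42 animal: it was 2 without T42 replicate 14, 6 without replicate 33 and 5 without replicate 50.

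ENSOCUG00000004625, the gene of rank 1, had 24.4 and 89.5 CPM in the other P7 pups, and 106.6 CPM in P7_1. It was at 0.96, 0.98, 2.45 and 3.14 CPM in the T37 pups and at 5.5, 4.29 and 2.20 CPM in the T42 pups. P7_1 thus lay far above every older term pup, with a log2 fold change of 5.33 ± 0.79 (SE; 40.2-fold, adjusted p = 0.00361 by edgeR with Benjamini-Hochberg adjustment). In the 3 P3 pups it was at 9.27, 63.3 and 134.9 CPM, and at birth at term it was spread over 28.2, 3.94, 3.38, 67.1, 8.30 and 2.72 CPM in the 6 T31 pups. The newborn term pups therefore overlapped the P3 pups, and a high level of this gene was not limited to preterm lungs.

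ENSOCUG00000022646, the gene of rank 2, was at 980.1, 1154.0 and 1008.2 CPM in the 3 P7 pups, P7_1 last. It was at 114.3, 59.2, 74 and 129.8 CPM at T37 and at 169.6, 281.5 and 149.3 CPM at T42, with no overlap. Its log2 fold change in P7_1 was 2.93 ± 0.31 (SE; adjusted p = 0.000437 by edgeR with Benjamini-Hochberg adjustment). The P3 pups, at 926.5, 215.5 and 336.0 CPM, overlapped the T31 pups, which ranged from 79.2 to 365.5 CPM.

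The genes of ranks 3 and 6 had the same order of pups. Rank 3 was at 391.3, 84.5 and 162.7 CPM in P3 pups 1, 2 and 3, and at 963.0 CPM in P7_1. Rank 6 was at 474.3, 131.7 and 153.7 CPM in these P3 pups, and at 1004.9 CPM in P7_1. In both, as in the gene of rank 2, P3 pup 1 was the highest and pup 2 the lowest. The gene of rank 7, nearly absent elsewhere, showed another order, at 0.98, 11.8 and 13.6 CPM in P3 pups 1, 2 and 3, and at 24.4 CPM in P7_1. It was at 3.36 CPM or less in each T37 and T42 pup. At rank 10 the gene had 10.3, 10.8 and 18.4 CPM in the P3 pups and 46.3 CPM in P7_1, above the 0.56 to 3.22 CPM of the T37 and T42 pups. These genes were picked after their values were seen, and the order of the P3 pups is given as a description. In edgeR's quasi-likelihood test of P7_1 against T37 and T42, the log2 fold changes (± SE) were 3.16 ± 0.30 for rank 3, 3.38 ± 0.26 for rank 6, 4.58 ± 0.72 for rank 7 and 4.31 ± 0.51 for rank 10. The Benjamini-Hochberg adjusted p-values of these 4 by edgeR were 0.000136, 1.4e-05, 0.00532 and 0.000848.

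**Figure D2:**
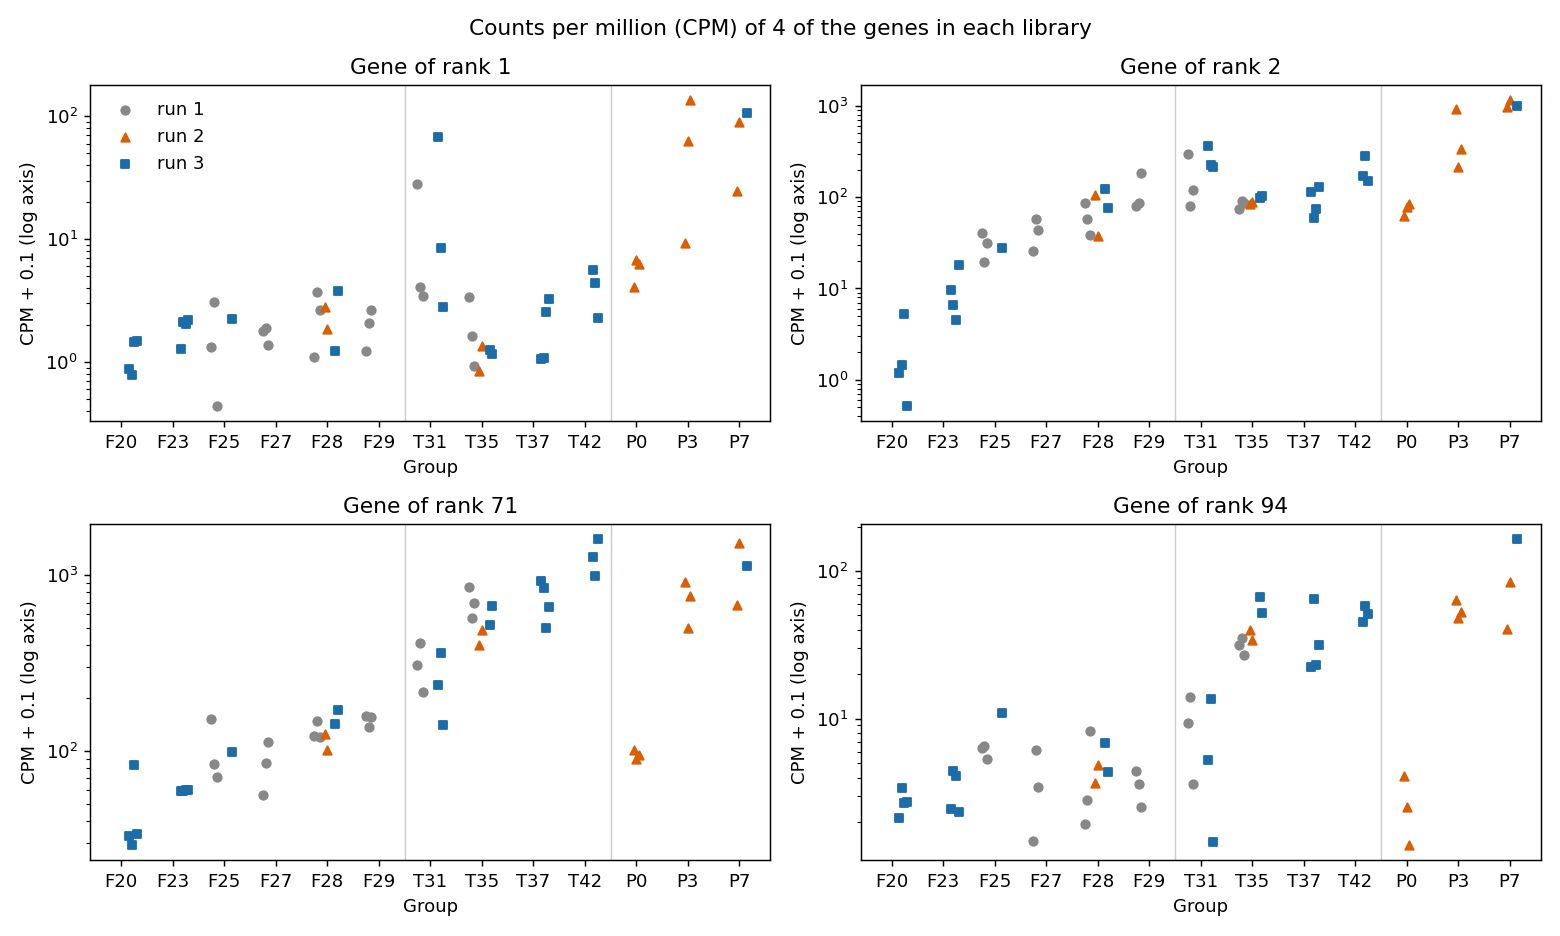
CPM plus 0.1 on a log axis in each library, by group, for the genes of ranks 1, 2, 71 and 94; colour and marker give the run. The genes of ranks 1 and 2 are higher in every P7 library than in any T37 or T42 library, whereas that of rank 71 is as high at T42 (988.5 to 1609.5 CPM) as at P7 (681.2 to 1525.3 CPM).

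Some of the genes first ranked did not separate P7_1 from older term pups. The gene of rank 4 was at 32.4 CPM in P7_1, within the 17 to 38.1 CPM of the T42 pups and above the 11.1 to 19.3 CPM of T37, with a log2 fold change of 0.73 ± 0.59 (SE; adjusted p = 0.6, edgeR with Benjamini-Hochberg adjustment). At rank 5, P7_1 had 14.1 CPM, above the T37 and T42 pups at 2.58 to 7.54 CPM, but the difference did not pass the test (adjusted p = 0.309 by edgeR with Benjamini-Hochberg adjustment). The lowest log2 fold change of the 100 genes was that of rank 53, with 5.27 CPM in P7_1 and 10.5 to 19.8 CPM in the T37 and T42 pups (log2 fold change -1.38 ± 0.70 SE, adjusted p = 0.375 by edgeR with Benjamini-Hochberg adjustment). It is the gene for which P7_1 lay below every T37 and T42 library.

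The question whether the genes also rise in the normal course was asked of term groups that had no part in the choice, with the 3 T31 pups of the run of T37 and T42. From birth (T31) to 11 days (T42), 23 of the 100 genes were called higher and 2 lower by edgeR's quasi-likelihood test, against 3.36% and 1.49% of all genes. The median log2 fold change was 0.46, and the called rises ran from 2.09-fold to 7.29-fold. From T31 to T37, 6 were called higher and 9 lower, against 3.15% and 1.76% of all genes, with a median of 0.07. The count of 6 became 15 without T31 replicate 11 and 3 without T37 replicate 47. All 6 genes called higher at T37 were among the 23. The count of 2 called lower at T42 was 5 without T31 replicate 18, 1 without T31 replicate 11 or T42 replicate 33, and 0 without T42 replicate 14 or 50. Between the 2 later term ages, 88 of the 100 genes had a higher mean at T42 than at T37, with a median difference of 0.44 on the log2(CPM + 1) scale. No share over all genes was taken for this count, so it is a description only.

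In successive blocks of 25 ranks, 3, 2, 10 and 8 genes were called higher at T42 than at T31. Where T35 was the highest comparison group, the ordering subtracted its level. A gene already higher in term pups at T35 was thus ranked lower, and nothing is read from the counts by block. The gene of rank 94 rose most, by 2.87 ± 0.56 (log2, SE; adjusted p = 0.00662 by edgeR with Benjamini-Hochberg adjustment), from 5.16, 13.5 and 1.36 CPM in the T31 pups of the run to 44.7, 57.5 and 51.3 CPM in the T42 pups. In P7_1 it was at 164.7 CPM, above every term pup, but the difference from T37 and T42 did not pass the test (adjusted p = 0.104 by edgeR with Benjamini-Hochberg adjustment). The abundant gene of rank 71 rose from 236.9, 360.1 and 140.0 CPM in these T31 pups to 1272.6, 988.5 and 1609.5 CPM at T42 (log2 fold change 2.32 ± 0.32 SE, adjusted p = 0.000999 by edgeR with Benjamini-Hochberg adjustment). P7_1, at 1123.2 CPM, lay among the T42 pups. Likewise the gene of rank 17 rose to 40.6, 46.6 and 36.2 CPM at T42, and P7_1, at 25.7 CPM, was below all 3.

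Set side by side, the P7_1 and T42 results split the 100 genes. Of these, 33 were called higher in P7_1 and not called between T42 and T31, 19 were called higher at T42 only, 4 (ranks 34, 51, 56 and 63) were called in both, 2 were called lower at T42, and 42 were called in neither. The 2 called lower at T42 were those of ranks 13 and 40. Both comparisons contain the T42 libraries, so a high T42 value lowers one and raises the other, and the split is not evidence of separate classes. No share over all genes was taken for any count of this split, with or without T37, so these counts are a description only. Taking T37 into account as well, 27 genes were higher in P7_1 and called in neither term comparison.

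**Figure D3:**
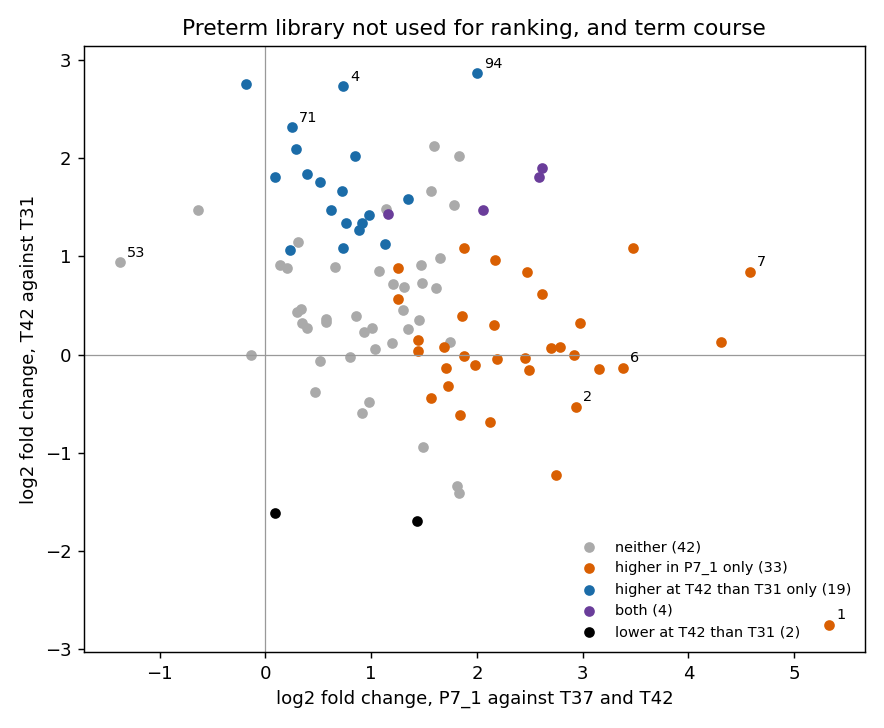
Each point is 1 of the 100 genes; the horizontal axis is the log2 fold change of P7_1 against T37 and T42, the vertical axis that of T42 against T31, colours give the calls with their counts, and numbers are ranks of genes named in the text. Of the points, 96 lie to the right of 0 on the horizontal axis and 73 above 0 on the vertical axis, and both axes share the T42 libraries. No share over all genes was taken for either count.

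Of the 9 genes called lower at T37 than at T31 (ranks 1, 2, 3, 6, 13, 26, 32, 39 and 57), 6 were called higher in P7_1 than in T37 and T42. For rank 1 the fall from T31 to T37 was -3.91 ± 0.83, for rank 2 -1.67 ± 0.28 and for rank 6 -1.29 ± 0.24 (log2 fold change, SE; adjusted p = 0.00989, 0.00321 and 0.00538 by edgeR with Benjamini-Hochberg adjustment). Both comparisons contain the T37 libraries, so a low T37 value lowers one and raises the other. No share over all genes was taken for the shared calls, and nothing is read from them. The genes of ranks 1, 2 and 6 were higher on average at birth at term than 6 days later, and P7_1 lay above both means. For rank 1 the groups overlapped and the fall leaned on T31_4. On the log2(CPM + 1) scale the T31 pups of the run were at 6.09, 3.22 and 1.90, and the T37 pups at 0.97 to 2.05. P7_1 and T37 are compared at ages of 7 and 6 days after birth, but at 35 and 37 days after conception.

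The set was named as genes raised in preterm lungs only, and term pups reached the preterm level in part of it. Measured against the lower of the P3 and P7 means, the T37 mean reached that level in 11 genes, the T42 mean in 36 and the mean of the 6 T31 pups in 3, and for 62 of the 100 genes all 3 means stayed below it. Of the 8540 genes past 2.6, the T42 mean reached that level in 52.7% and all 3 means stayed below it in 18.4%. The level is made of the values that chose the genes, read in another run than T37 and T42, so the 62 are no support for the name. P7_1 itself reached that level in 92. The 36 genes that T42 reached were spread over the blocks of 25 ranks as 4, 6, 14 and 12, and 3 of them were called higher in P7_1, against 34 of the other 64. A high T42 value both places a gene among the 36 and lowers its difference in P7_1, so nothing is read from this contrast. For 12 genes the T42 mean was at or above P7_1, and for 4 the T37 mean was. At least 1 T31 library reached the level in 40 genes. P0, F28 and T35 lie below by the choice of the genes. Delivery at term or preterm is one difference among several between these groups, and these counts carry no test. Apart from the counts of 36 and 62, no share over all genes was taken for how many genes a group or pup reached, so those counts are a description only.

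Fetal and birth values were also outside the choice, apart from F28. Of the 100 genes, 48 were lowest at F20 among the 13 groups, and 61 at F20 or F23, while 84 were highest at P7, 8 at T42, 4 at P3 and 4 elsewhere. The P3 and P7 values helped to choose the genes, and no share over all genes was taken for these counts. Nothing is therefore read from them. The library medians, on the log2(CPM + 1) scale, lay between 1.25 and 2.39 at F20, between 1.78 and 2.61 at F25 in the first run, and between 2.78 and 2.95 at F29. Within 1 run the F29 mean was above the F25 mean in 78 genes, with a median difference of 0.85, against 39.98% of all genes and a median of -0.09. From F29 to T31 in that run 68 were higher in mean value, with a median of 0.27, against 48.1% of all genes and -0.01. Most of the genes were therefore higher at the end of gestation than at F25, and these differences between group means carry no test.

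**Figure D4:**
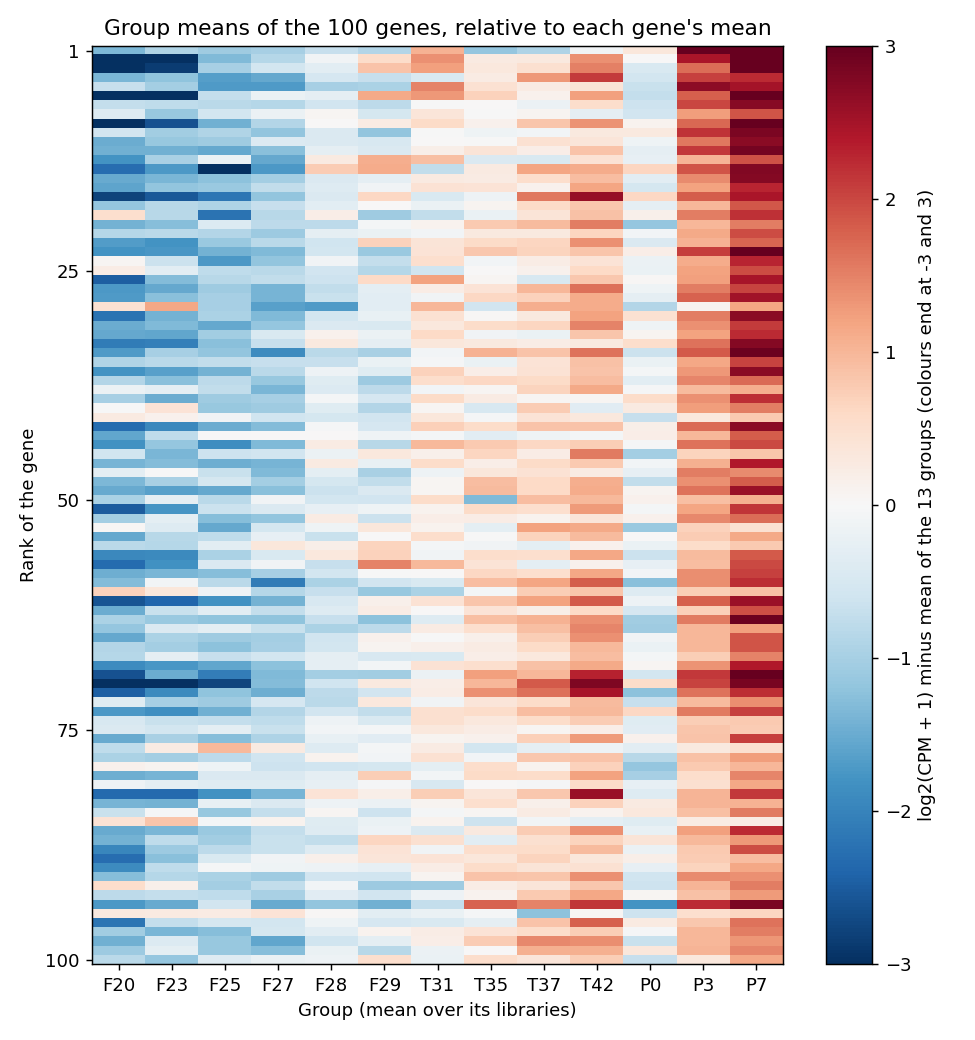
Colour is the mean log2(CPM + 1) of a group minus that gene's mean over the 13 groups, with the 100 genes in order of rank from top to bottom; colours end at -3 and 3. P3 and P7 are mostly highest by the choice of the genes, and the T42 mean reaches the lower of the P3 and P7 means in 36 genes. F20 or F23 is lowest for 61 genes, a count with no share over all genes beside it.

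A fetus and a term pup that had no part in the choice, F28_7 and T35_1, allowed a further comparison with P7_1. The median of the gene-wise differences of P7_1 from fetus F28_7 in the same run was 2.09 over the 100 genes, 88 genes lay more than 1 above and 99 lay above it, against 5.94% and 44.8% of all genes. In another run the median of the gene-wise differences of the term pup T35_1 from the same fetus was 0.57, 28 genes lay more than 1 above and 81 lay above it, against 4.17% and 41.0% of all genes. Most of the 100 genes were thus above the fetus in the 4-day term pup as well as in the 7-day preterm pup, by a smaller median amount in the term pup. Each is 1 library against 1, and no test was made.

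The remaining comparisons include the libraries that chose the genes, and nothing is read from their calls or from the share of all genes beside them. With 1 library per animal in a fit with sequencing run as a covariate, 51 of the 100 genes were called higher in the 3 P7 pups than in T37 and T42 (1.32% of all genes), 7 in the P3 pups (0.249%), and 12 in P3 against T31 (0.188%), with none lower. The median log2 fold changes were 1.37, 0.85 and 1.19. The P7 count rested on P7_1, the P7 pup of the same run as T37 and T42, and was 13 without it. The P3 counts moved with single pups as well: against T37 and T42 between 1 (without P3 pup 3) and 7, and against T31 between 4 (without P3 pup 3) and 26 (without T31 pup 11). The P3 pups were not sequenced in the run of T37 and T42. In this fit, with 1 library per animal, the runs are thus linked only by groups with different animals in each. P7 (2 pups in one run and P7_1 in the other) and F28 link these runs directly. They are also linked by way of the remaining run, which T35 ties to the run of P3 and T31 ties to the run of T37 and T42.

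The counts per library lay between 5771693 and 8073755, and P7_1 had 7778938. Reads carried no molecular identifiers, so the counts include amplification copies, and a level of 0.5 CPM is 3 to 4 reads. The labels do not say which pups shared a litter. By the study's methods the lungs collected at a time point came from different dams. Whether pups of different time points shared a dam is not stated.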

How the data were processed

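Lung RNA was sequenced by the authors with QuantSeq 3′ mRNA libraries, and they deposited 1 table of raw counts per gene, made with STAR on the OryCun2.0 assembly and HTSeq-count on Ensembl genes (versions not given in the sources used here). A script of the authors extended 3′ ends of genes, but whether those reads are in the deposited counts is not stated, and genes that share reads with a near-identical copy could not be singled out. All 54 columns were mapped to samples by their labels. Identifiers were looked up in a RefSeq table of another assembly (mOryCun1.1): 0 of 29587 matched, so none of the 21 marker lists (337 symbols) could be applied, tissue and cell type markers were not checked, and the rule that named genes by symbol gave way to rank. The 2 identifiers printed are those of ranks 1 and 2. Other single genes were chosen after their values were seen. The members and lists were chosen with earlier results of these data known.

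CPM was the count divided by the library total, with a pseudocount of 1. Tests used edgeR 4.0.16 in R 4.3.3 (quasi-likelihood, TMM), with genes at 0.5 CPM or more in 3 fitted libraries and Benjamini-Hochberg adjustment over all of them. Calls needed a fold over 2 and an adjusted p of at most 0.05. P7_1, T37 (4), T42 (3) and T31 (3) were fitted with F28 (2) and T35 (2), which add only to the estimate of spread and of which 3 animals helped to choose the genes, on 15 libraries of 1 run (9 residual degrees of freedom, 13983 genes). The comparisons with P3 and all P7 pups used 28 animals with run as a covariate (18 degrees of freedom, 14858 genes). All 100 genes passed both filters. The p-values rest on the spread between animals within groups. In the comparisons of P7_1 that spread came from the other groups only. Code was tested on simulated data. Alternatives were RLE scaling, DESeq2 1.42.0, limma 3.58.1 (voom), other filters, thresholds, sample sets and leaving out animals.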

Additional observations from a re-analysis of the deposited data

Results flagged for a closer look

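In 64 groups of 4 to 10 libraries (the median of the 100 genes and the genes of the first ranks), 8 had a library set apart from the rest by Dixon's test, where chance gives about 3.2. Fetus F20_35 was set apart in 4 of them. Its median over the 100 genes was 2.39 on the log2(CPM + 1) scale, above the other F20 libraries. In the same fetus the gene of rank 3 was at 3.18 and that of rank 5 at 5.67, both above the other F20 libraries, and the gene of rank 9 was at 0.35. The gene of rank 1 was at 1.12 in fetus F23_6, and that of rank 7 at 0.38 in fetus F23_23. The other F20 libraries were all at 0 for rank 9, and the other F23 libraries all at 0 for rank 7. Any value above 0 is then set apart, so the rate by chance does not apply to these groups. The gene of rank 5 was at 1.51 in the term newborn T31_18, below the other 5 T31 pups. The gene of rank 12 was at 1.18 in the term pup T37_27. None of these libraries is among those that chose the genes, and the F20 and F23 libraries entered only the fits with all 24 libraries of the run.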

How the results depend on the processing

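P7_1 against T37 and T42 kept its count of members within 1.5 times under every alternative run (29 to 40 when an animal was left out), although all calls were 361 with DESeq2 (182 higher and 179 lower, against 117 and 30) and 252 without a filter. Signs were checked singly only for the members of the first ranks and those with the largest and smallest log2 fold changes. Of these, only that of rank 17 changed sign (-0.33 to 0.0052 without 1 animal, the latter without T37 replicate 47), at no call. Against T37 all calls were 187, and 465 with DESeq2, 330 without a filter, 309 with all 24 libraries of the run, and 103 to 269 when an animal was left out. Against T42 they were 62, and 233, 112, 106 and 6 to 19; members numbered 17, and 32 with DESeq2, 28 with limma-voom, 26 without a filter and 2 to 6 without an animal. T37 against T31 had 687 calls and T42 against T31 678, with 1578 and 1584 by adjusted p alone and 397 to 806 and 365 to 781 without an animal; members called higher at T37 ranged from 3 to 15. P3 against T37 and T42 had 70 calls, 200 with DESeq2 and 17 to 82 without an animal; members 7, and 18 with DESeq2, 4 with limma-voom, 13 without a filter, 11 without a run term and 1 to 7 without an animal. P7 against T37 and T42 had 317, and 656 by adjusted p alone, 125 without a run term and 28 to 335 without an animal; members 13 to 53. P3 against T31 had 34 calls, 128 with DESeq2, 74 without a filter, 317 without a run term and 16 to 64 without an animal; members 12, and 39, 26, 35 and 4 to 26. With the animal number as a replicate block it had 8 calls and 2 members, and the same 21 libraries without the block, a comparison added after the data were seen, had 14 and 5. The numbers come from the animal labels. In 18 pairs of animals with the same number, deviations from the group means correlated at -0.16 to 0.55, 4 above 0.1. The groups are small and sequencing run was not removed, so this check cannot decide whether the numbers pair the animals. The causes were not tested. Other forms of the choice of genes shared 78 to 99 of the 100 members. The run of T37 and T42 holds 1 preterm library, so the spread among preterm pups was not measured there.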
